A study of Mus musculus with 33 samples.

Results

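Ribosomal protein genes of the cytoplasmic ribosome were followed through the first 2 postnatal weeks in the auditory brainstem nucleus called the medial nucleus of the trapezoid body, or MNTB. Its principal neurons release glycine and are driven by the calyx of Held, a very large excitatory terminal. The genes were those whose symbol is Rpl or Rps followed by a number, with the paralogs that add a letter to it, together with Rplp0, Rplp1, Rplp2 and Rpsa, and which a probe set of the array names alone. This gave 21 of the 14857 genes so named, 12 named for the large subunit and 9 for the small subunit, each read by 1 probe set. Of the 21, 5 are paralogs (Rpl3l, Rpl7l1, Rpl39l, Rps4l and Rps27l), and RefSeq annotates Rps4l as a transcribed pseudogene. Rplp1, Rplp2 and Rps6 had no probe set of their own and were not analysed here. Another 33 probe sets name several genes with a ribosomal protein among them, and these were not used because their signal cannot be given to 1 gene. They hold 24 ribosomal protein symbols that are not among the 21, so the 21 cover only a part of the ribosome.

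The tissue came from untreated wild-type FVB mice (the strain tag of the labels reads FVN) and was cut from living brain slices with a needle, which enriches for the nucleus without isolating a cell type. Each of the 33 arrays holds 1 mouse. There were 5 mice at P0, P1, P2, P3 and P6, with P the postnatal day, and 4 mice at P4 and P14, and each mouse has a litter number from 1 to 5 (no litter 4 at P4 or P14). The labels do not give the sex, or say whether the same litter number at 2 ages is the same litter.

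A ribosome joins a small subunit, which reads the message, to a large subunit, which makes the peptide bond, and most ribosomal proteins are needed in about equal number. Vertebrate ribosomal protein messages typically begin with a run of pyrimidines, the TOP motif, through which the kinase mTOR controls their translation, and Myc proteins drive the transcription of many genes of ribosome production. In the nervous system ribosomes fill the cell body of large neurons and also occur in growing axons. Several members are themselves paralogs with a narrower use: Rpl3l is known from striated muscle, Rpl39l from the testis, and Rps27l from the response to p53. The parent genes of these paralogs are not members.

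The starts of 6 genes are shown because they carry the pyrimidine run or, for Rplp0 and Rpl23, lack it in the stretch searched. Each line gives 30 bases before to 30 from the start annotated by RefSeq on GRCm38.p6, 5′ to 3′ on the gene's strand, with runs of at least 8 pyrimidines and the motif TATAAA in capitals. The first run of Rpl31 begins before the stretch printed.
Rplp0 (chr5:115559437-115559496, plus strand): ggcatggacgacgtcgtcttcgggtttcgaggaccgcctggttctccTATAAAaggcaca
Rps9 (chr7:3704011-3704070, plus strand): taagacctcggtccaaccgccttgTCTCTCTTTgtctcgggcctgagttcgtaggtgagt
Rpl23 (chr11:97782410-97782469, minus strand): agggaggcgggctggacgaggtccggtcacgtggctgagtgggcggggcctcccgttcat
Rpl31 (chr1:39367821-39367880, plus strand): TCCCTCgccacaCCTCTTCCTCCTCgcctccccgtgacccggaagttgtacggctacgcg
Rps18 (chr17:33955636-33955695, minus strand): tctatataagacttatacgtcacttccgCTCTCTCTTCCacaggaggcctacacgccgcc
Rps27l (chr9:66946056-66946115, plus strand): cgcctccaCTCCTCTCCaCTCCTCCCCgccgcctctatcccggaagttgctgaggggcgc
Of the 21 genes, 18 had a start in the RefSeq table used here, and Rpl8, Rps20 and Rps4l had none. A run of at least 8 pyrimidines on the gene's strand, within 50 bases of either side of the start, stood in 13 of the 18 (72.2%) and in 39.3% of 27025 genes with a start in that table. The letters CCGGAAG, which ETS-family factors are known to bind, were found on either strand of the 300-base window in Rpl31, Rpl37, Rpl39l, Rps18, Rps27l and Rpsa, 6 of 18 (33.3%), and in 9.93% of all genes. TATAAA occurred in Rpl22 and Rplp0 (11.1%, against 15.7% of all genes), and in Rplp0 it lies downstream of the annotated start. CACGTG, the letters that Myc with Max is known to bind, occurred in Rpl23 alone of the 18 (5.6%, against 8.09%). These matches describe letters in a window and do not mark a used start or site.

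The values are the authors' log2 signals, which cannot be compared between probe sets as levels of RNA. Array medians lay between 4.829 and 5.116, with a mean of 4.953 at P6 and 5.069 at P14, so results after P6 are also given after quantile normalization, which gives every array the same distribution, where they differ in call, direction or size. Pearson correlations between mice of the same age ran from 0.9671 to 0.9904 across probe sets, and no pair of arrays was identical. Of 12 principal neuron genes 7 were called higher and 2 lower at P6 than at P0, against 6.42% and 7.95% of all probe sets. Of the 12 genes Pvalb, a calcium-binding protein of these neurons, was up by 4.86 log2 (SE 0.2). From P6 to P14 the calls of this list were 6 higher and 3 lower, or 4 and 3 after quantile normalization, so the list did not move as one. All arrays are of MNTB tissue, so enrichment over other tissue was not tested. Of the 21 ribosomal protein genes, 11 gave a signal above the array's median on every array: Rpl4, Rpl7l1, Rpl8, Rpl22, Rpl23, Rplp0, Rps3, Rps4l, Rps9, Rps20 and Rpsa. The other 10 fell below the array's median on at least 1 array, and Rpl3l, Rpl10a, Rpl39l and Rps15 did so on all 33, where changes are compressed. Rpl39l and Rps15 lay below the lower quartile on all 33 as well. Rpl35a fell below the median on 32 arrays, Rpl37 on 27 and Rps18 on 22. A small change at so low a signal does not show that the message was stable.

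Few ribosomal protein genes were called as differing with age. Limma's F test over the 7 ages called 1 of 21 at an adjusted p under 0.05, Rplp0 (adjusted p = 0.0285), against 28.5% of all 16686 probe sets, and 3 of 21 had an unadjusted p under 0.05. After quantile normalization Rplp0 (adjusted p = 0.0131) and Rpl23 (adjusted p = 0.0494) were called, against 32.7% of probe sets. The call of Rplp0 as deposited was lost without the P14 mouse of litter 1 (adjusted p = 0.223), litter 2 (0.101) or litter 5 (0.0866). The widest ranges of age means belonged to Rplp0 (1.94 log2), Rpl37 (1.56) and Rps27l (1.25), and the narrowest to Rps9 (0.14), Rps4l (0.189) and Rpl39l (0.205). The scatter was not small: the median SD between mice of an age was 0.423 log2 over the 21 genes, from 0.109 for Rpl39l to 1.11 for Rpl37, and 0.226 over all probe sets. For the 11 genes above the array median on every array it was 0.35, against 0.267 for the 6393 probe sets of that brightness. Because tissue was measured in bulk, fewer cells of a type and less RNA per cell cannot be told apart in any of these values.

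**Figure D1:**
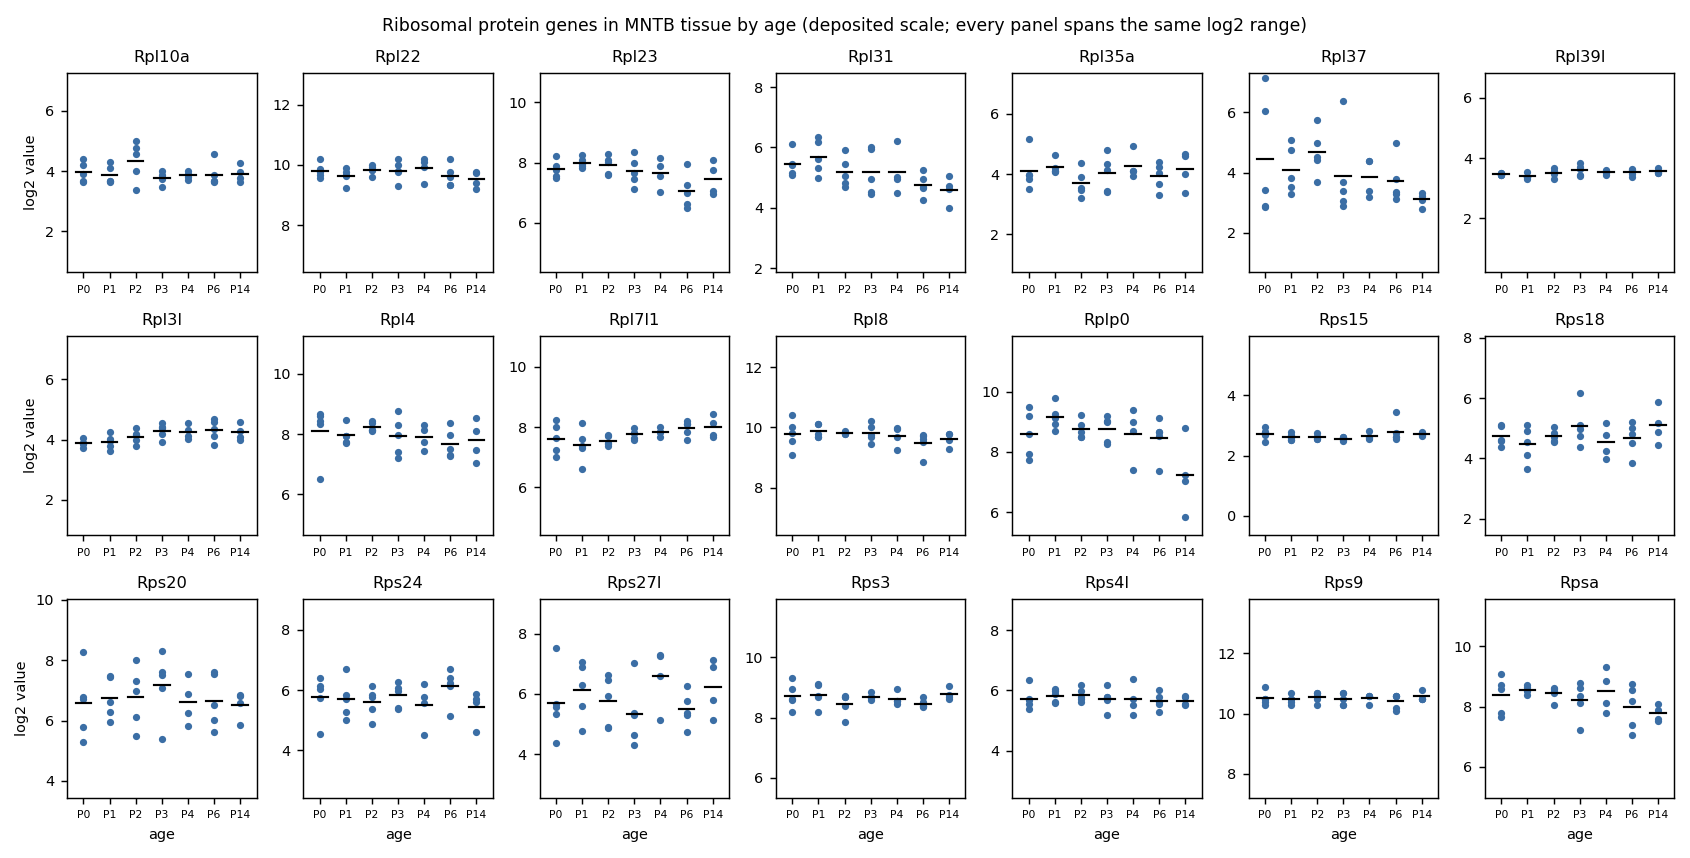
Log2 signal of the 21 ribosomal protein genes by age on the deposited scale. Each point is a mouse, the bar is the mean of an age, and every panel spans the same log2 range, so that the narrow course of Rps9 can be set beside the scatter of Rpl37, Rps20 and Rps27l and the low P14 values of Rplp0.

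Rps9, a small-subunit protein, shows how level a course could be. Its 5 mice at P0 read 10.5, 10.4, 10.9, 10.5 and 10.3, the 5 at P6 10.6, 10.1, 10.6, 10.2 and 10.6, and the 4 at P14 10.5, 10.5, 10.8 and 10.5. The ages overlap throughout. The change from P0 to P6 was -0.08 (95% interval -0.33 to 0.16) and that from P6 to P14 was 0.14 (-0.12 to 0.40), or -0.07 after quantile normalization (-0.28 to 0.14), so a 2-fold change in either direction lies outside these intervals.

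Between P0 and P6, the days in which the calyx forms, no ribosomal protein gene was called on the deposited scale, with 14.4% of all probe sets called, 6.42% higher and 7.95% lower. At an unadjusted p under 0.05 there were 2, Rpl3l and Rpl23, and with the litter number as a block Rpl3l was called higher. After quantile normalization there were 3, with Rpl31 as the third. The point estimate lay below 0 for 15 genes and above 0 for 6, from -0.76 for Rpl37 to 0.43 for Rpl3l. The median change was -0.12, against -0.01 over all probe sets, with -0.17 for the large subunit and -0.08 for the small. The median size of the change was not small, 0.21 against 0.15 over all probe sets. Interval widths limit what this excludes: the 95% interval lay within 1 log2 of 0 for 13 of 21 genes and for 90.9% of probe sets. In no gene were the P0 and P6 mice fully separated, which 9.56% of probe sets were (12.6% after quantile normalization, with none of the 21).

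Rpl23, a protein of the large subunit, read 7.75, 7.48, 7.89, 7.54 and 8.21 in the mice of P0 and 6.64, 6.98, 7.97, 6.50 and 7.27 in those of P6. At P6, 4 of the 5 mice lay below all mice of P0, and the mouse of litter 3 lay among them. The change was -0.70 (SE 0.255, 95% interval -1.22 to -0.18), with an adjusted p in limma of 0.064. Within litter numbers it was -1.10, -0.50, 0.08, -1.04 and -0.94 for litters 1 to 5. Without the P6 mouse of litter 3 the change was -0.92 and was called (adjusted p = 0.0103).

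Rpl3l read 3.88, 3.72, 3.86, 3.88 and 4.04 at P0 and 3.83, 4.13, 4.57, 4.67 and 4.34 at P6. Of the P6 mice, 4 lay above all P0 mice, and that of litter 1 did not. The change was 0.43 (SE 0.151, 95% interval 0.13 to 0.74) with an adjusted p in limma of 0.0512 as deposited, and 0.44 with an adjusted p of 0.036 after quantile normalization, where it was the single call, with 8.05% of probe sets called higher and 10.2% lower (18.2% in all). With the litter number as a block the adjusted p was 0.0444 as deposited. It was also called without the P0 mouse of litter 5 (adjusted p = 0.046) or the P6 mice of litter 1 (0.0108) or 2 (0.0459). Its signal lay below the array median on all 33 arrays.

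Rpl31, which lies near the peptide exit tunnel, had a change of -0.68 (95% interval -1.36 to 0.00) as deposited. After quantile normalization it was -0.69 (-1.33 to -0.06), with an adjusted p in limma of 0.133. Rpl4, which reaches into the tunnel, had a change of -0.43 (-1.11 to 0.25) as deposited. Rpl37 had the lowest estimate, -0.76, and the least precise, with an interval from -2.11 to 0.60. Rpl8, Rpl22, Rpl35a and Rpl10a had changes of -0.29, -0.17, -0.17 and -0.08, none called. As deposited, Rpl22 read lower at P6 in each of the 5 litter numbers, with a mean change of -0.17, and its interval ran from -0.54 to 0.19. After quantile normalization it read higher at P6 in litter 3 (10 to 10.2) and litter 4 (9.98 to 10), and lower in the others. Rpl7l1, a relative of Rpl7, stood at 0.34 (-0.09 to 0.77). On the small subunit Rpsa, also known as a laminin receptor, was at -0.38 (-1.02 to 0.26), and Rps3, which lies at the entry of the message, at -0.27 (-0.63 to 0.09). Rps24, mutated in some cases of human Diamond-Blackfan anaemia, was at 0.35 (-0.38 to 1.08), Rps18 at -0.08 and Rps15 at 0.07. Rplp0 was at -0.12 (-0.96 to 0.72), Rps4l at -0.08, Rpl39l at 0.07, and the widely scattered Rps20 and Rps27l at 0.09 (-1.02 to 1.2) and -0.21 (-1.35 to 0.94).

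**Figure D2:**
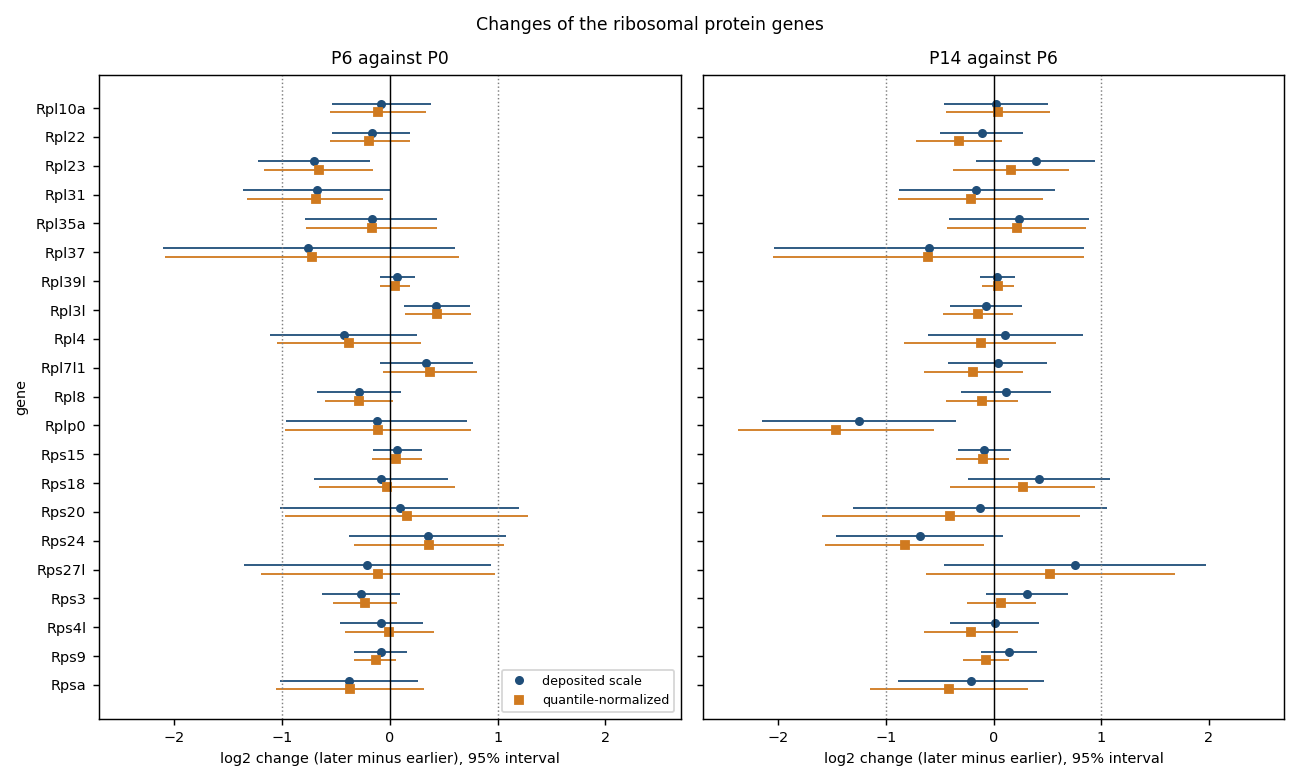
Log2 change of each ribosomal protein gene from P0 to P6 (left) and from P6 to P14 (right). Points are limma estimates with 95% intervals, circles as deposited and squares after quantile normalization, and the dotted lines stand 1 log2 from 0. From P6 to P14 the interval of Rplp0 lies furthest from 0, with an estimate of -1.25 as deposited and -1.46 after quantile normalization.

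Between P6 and P14, while hearing begins, 1 of 21 genes was called lower, Rplp0, and none higher, against 5.14% of probe sets called lower and 15.7% called higher (20.9% in all). That gene was also the only one with an unadjusted p under 0.05. The median change was 0.02 over the 21 genes and 0.05 over all probe sets as deposited, and -0.12 and -0.02 after quantile normalization. The count of estimates above and below 0 turned with the scale, from 12 and 9 to 7 and 14, so no direction can be given for the 21 genes. The 95% interval lay within 1 log2 of 0 for 15 of 21 genes and for 85.3% of probe sets. No gene had its P6 and P14 mice fully separated, against 18.4% of probe sets (none and 19.7% after quantile normalization). The mice of P6 enter both this comparison and that with P0.

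Rplp0 is the base of the stalk of the large subunit, which recruits the elongation factors. Its log2 signal in litters 1 to 5 was 7.72, 8.60, 9.50, 9.18 and 7.93 at P0, 8.69, 9.14, 9.26, 9.78 and 8.93 at P1, and 8.66, 8.51, 8.89, 9.24 and 8.49 at P2. The 5 mice of P1, all at 8.69 or above, give the highest mean of the 7 ages, 9.16 ± 0.406 (SD, n = 5). At P3 it read 9.04, 8.27, 8.98, 9.18 and 8.34, and at P4, in litters 1, 2, 3 and 5, 9.38, 7.40, 8.99 and 8.68. At P6 it read 8.67, 7.36, 8.65, 9.13 and 8.52, and at P14, in litters 1, 2, 3 and 5, 5.83, 7.05, 8.78 and 7.22. The ages overlap, since 1 of the 4 mice of P14, that of litter 3, stood at the level of the P6 mice, while the mouse of litter 1 stood lowest of all 33. The mean went from 8.47 ± 0.659 (SD, n = 5) at P6 to 7.22 ± 1.21 (SD, n = 4) at P14.

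Rplp0 thus fell by 1.25 log2 (SE 0.438, 95% interval -2.15 to -0.35), a 2.38-fold lower signal, with an adjusted p in limma of 0.0402. After quantile normalization the change was -1.46 (SE 0.445, adjusted p = 0.0162), again the 1 call among the 21 genes, with 10.4% of probe sets called lower and 10.9% higher (21.4% in all). The call was lost without any of 7 of the 9 mice. Without the P14 mouse of litter 1 the change was -0.79 (adjusted p = 0.253), without that of litter 2 the adjusted p was 0.0845 and without that of litter 5 it was 0.0739. Without the P6 mice of litters 1, 3, 4 and 5 the adjusted p was 0.0703, 0.0753, 0.11 and 0.0639. Within litter numbers the change was -2.84 in litter 1, -0.32 in litter 2, 0.13 in litter 3 and -1.30 in litter 5, lower at P14 in 3 of 4. Litter 4, which had the highest P6 value, has no mouse at P14.

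**Figure D3:**
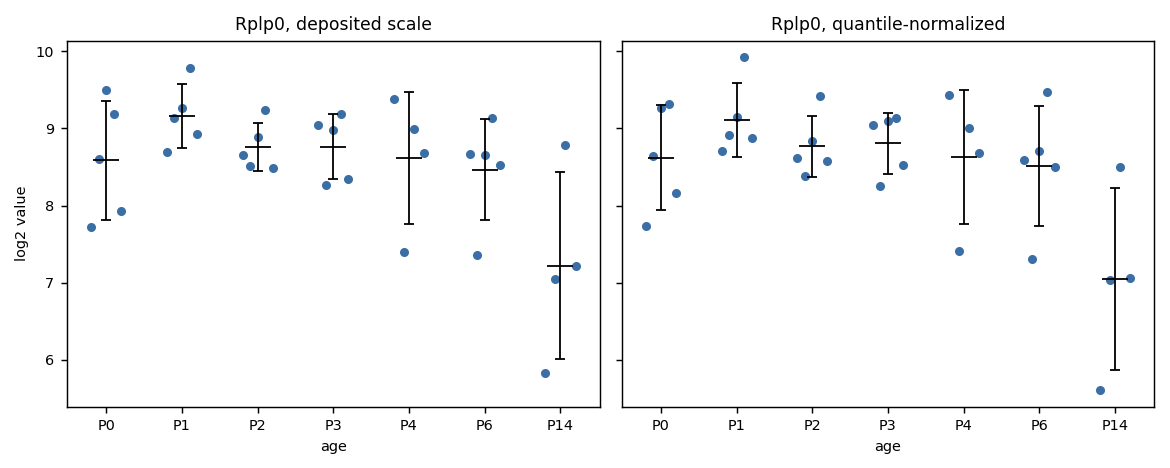
Log2 signal of Rplp0 in every mouse by age, as deposited (left) and after quantile normalization (right). Points are mice, the long bar is the mean and the error bar is 1 SD. Of the 4 mice at P14, 3 lie below the mean of every other age and 1 reaches 8.78 on the deposited scale.

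Markers of other cells moved between the same ages. All 14 measured myelin and oligodendrocyte genes were called higher at P14 than at P6 as deposited (13 after quantile normalization), and the mean of the list went from 7.15 (6.86 to 7.58 over the mice) to 10 (9.85 to 10.1). Of 10 immature neuron genes 9 were called lower, and their mean went from 8.35 (7.98 to 8.57) to 7.27 (7.04 to 7.42). Microglia genes were called higher in 10 of 11, endothelial and pericyte genes in 8 of 13, astrocyte genes in 6 of 11 (1 lower) and meningeal genes in 4 of 8. Dividing cell genes were called lower in 6 of 11, and neither of the 2 erythroid genes measured was called. After quantile normalization the counts were 8 of 11 higher for microglia, 3 of 8 for meninges, 6 higher and 2 lower for astrocytes, and 1 of 2 erythroid genes lower (Alas2, -0.49, adjusted p in limma 0.00692). Their part in the change of Rplp0 was not tested.

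The other 20 genes were not called between P6 and P14. Rps24 read 6.22, 6.69, 6.15, 5.15 and 6.40 at P6 and 5.71, 5.60, 4.61 and 5.86 at P14. The ages overlap through the P6 mouse of litter 4, while each of the 4 litter numbers present at both ages read lower at P14. The change was -0.68 (95% interval -1.46 to 0.09, adjusted p in limma 0.234), and -0.82 after quantile normalization (adjusted p = 0.109). Rps27l, a p53-induced relative of Rps27, had a change of 0.76 with an interval from -0.46 to 1.97 as deposited, and 0.52 after quantile normalization. Its mice at P14 read 6.88, 5.80, 7.13 and 5.14, and those at P6 5.35, 4.74, 5.75, 5.30 and 6.27, so 2 of the 4 mice of P14 stood among the P6 mice. Rpl23 stood at 0.39 (-0.16 to 0.94), Rps18 at 0.42 (-0.24 to 1.08) and Rps3 at 0.31 (-0.07 to 0.69) as deposited, and at 0.16, 0.27 and 0.07 after quantile normalization. Rpl37 was at -0.60 (-2.04 to 0.84), Rpl35a at 0.24 and Rpl31 at -0.16, with -0.61, 0.22 and -0.21 after quantile normalization. Rpsa went from -0.21 to -0.41 between the scales and Rpl22 from -0.11 to -0.32. As deposited, the changes of Rpl4, Rpl8, Rps20, Rps15, Rpl3l, Rpl7l1, Rpl39l, Rpl10a and Rps4l lay between -0.13 and 0.12, with an interval for Rps20 from -1.30 to 1.05. After quantile normalization they lay between -0.40 (Rps20) and 0.04, and Rpl4 (0.11 to -0.12), Rpl8 (0.12 to -0.11), Rpl7l1 (0.04 to -0.19) and Rps4l (0.01 to -0.21) changed sign, as Rps9 did. Of these, Rpl39l was the most precise at 0.03 (-0.13 to 0.20) as deposited, with a signal below the lower quartile on every array, and Rps4l, which RefSeq annotates as a transcribed pseudogene, had an interval from -0.40 to 0.42.

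The single steps gave no call among the 21 genes. The share of all probe sets called was 0.204% from P0 to P1, 0.018% from P1 to P2, 0.024% from P2 to P3, 0.012% from P3 to P4 and 0.479% from P4 to P6, so these steps made few calls of any kind. With an unadjusted p under 0.05 there was none from P0 to P1. From P1 to P2 it was Rpl10a (0.47), from P2 to P3 Rpl10a again (-0.56), from P3 to P4 Rps27l (1.25) and from P4 to P6 Rpl23 (-0.59).

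Mice of the same age differed together in the signals of the brighter ribosomal protein genes, and less so over all 21 genes. For the 11 genes above the array median on every array, a set taken after their values were seen and so described without a test, the correlation of the deviations from the age means over the 33 arrays averaged 0.41 over 55 pairs. All 6393 probe sets of that brightness averaged 0.28 as deposited. After quantile normalization the averages were 0.40 and 0.00. Over all 21 genes the average was 0.18 as deposited and 0.13 after quantile normalization, against 0.04 and 0.00 over all 16686 probe sets. Quantile normalization holds the mean of so large a set near the same value on every array. Both values of 0.00 thus came by construction, and only the deposited averages can be set against those of all probe sets. The points share arrays, and thus each mouse's RNA and amplification. As deposited, 39 of the 55 pairs had r over 0.3 and 1 lay below 0, with the highest at 0.77 for Rps4l with Rpsa and 0.74 for Rpl8 with Rps9, and the lowest at -0.14 for Rpl23 with Rpl4.

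The deviations differed by litter number. Averaged over the 11 genes after quantile normalization, litter 3 lay above the age mean at 7 of 7 ages (mean deviation 0.22 log2) and litter 4 at 5 of 5 (0.30), while litter 2 lay above it at 1 of 7 (-0.30). Litters 1 and 5 were above at 3 and 4 of 7 ages (-0.08 and -0.05). As deposited the counts were 7 of 7, 5 of 5 and 0 of 7 for litters 3, 4 and 2, with means of 0.29, 0.16 and -0.26. On that scale all probe sets of that brightness averaged 0.08, -0.17 and 0.05 in those litters. Quantile normalization holds that average near 0 by construction. The P6 mouse of litter 4, whose array had the lowest weight, went from 0.07 as deposited to 0.40 after quantile normalization.

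Rps20, a small-subunit protein, had the most widely spaced litter means of the 11. In litters 1 to 5 it read 6.77, 5.79, 8.28, 6.70 and 5.30 at P0, 5.95, 6.29, 7.49, 7.46 and 6.61 at P1, and 6.99, 5.49, 7.30, 8.01 and 6.11 at P2. At P3 it read 7.61, 5.38, 7.52, 8.29 and 7.07 and at P6 6.51, 5.61, 7.56, 7.60 and 6.01. In litters 1, 2, 3 and 5 it read 5.81, 6.26, 7.55 and 6.89 at P4 and 6.59, 5.86, 6.82 and 6.84 at P14. After quantile normalization litter 2 lay below the age mean at every one of its 7 ages (mean deviation -0.95), litter 3 above it at all 7 (0.69) and litter 4 at all 5 (0.99). An F test of the litter number with age in the model, added after the pattern was seen, called Rps20 (adjusted p in limma 0.00258 as deposited, 0.00062 after quantile normalization). By age its F test had an adjusted p of 0.967.

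In that test Rps20 was the 1 of 21 genes called as deposited, against 6.86% of all probe sets, and 9 of 21 had an unadjusted p under 0.05, against 26.4%. After quantile normalization Rplp0 (adjusted p = 0.0467) and Rpl7l1 (adjusted p = 0.0488) were called as well, 3 of 21 against 3.64% of probe sets, and 10 of 21 had an unadjusted p under 0.05, against 20.2%. The 3 arrays that limma weighted lowest are all of litter 4, at P1, P2 and P6. Without them Rps20 was still called (adjusted p = 0.0278 as deposited and 0.0172 after quantile normalization), Rpl37 was called in addition (0.0208 and 0.00947), while Rplp0 (0.313 and 0.273) and Rpl7l1 (0.343 and 0.186) were not, against 0.539% and 1.17% of probe sets. Litter 4 then keeps only its mice of P0 and P3, where Rpl37 read 7.12 and 6.38 as deposited. In the litter 4 arrays left out Rpl37 read 5.08 at P1, 3.68 at P2 and 3.29 at P6. With all arrays the adjusted p of Rpl37 in this F test was 0.25 as deposited. The signal of Rpl37 lay below the array median on 27 of the 33 arrays. Whether RNA quality, the dissection or a shared mother or day moved with the litter number was not tested.

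**Figure D4:**
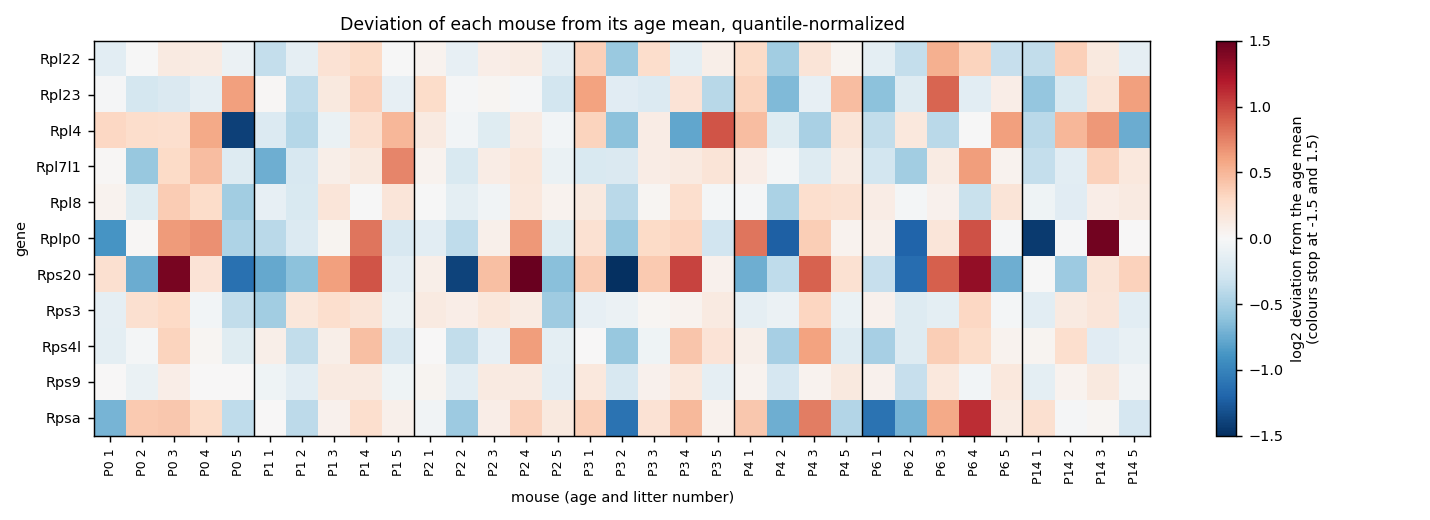
Deviation of each mouse from the mean of its age, in log2 after quantile normalization, for the 11 ribosomal protein genes above the array median on every array. Columns are mice by age and litter number, red is above and blue below the age mean, and the colours stop at 1.5. Columns of litters 3 and 4 are mostly red and those of litter 2 mostly blue, with the strongest colours in Rps20, whose litter means are 0.69, 0.99 and -0.95.

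The genes that build and serve the ribosome were described from lists chosen with earlier results of these data known. Of 32 measured assembly factors 2 were called lower from P0 to P6 and none higher, against 7.95% and 6.42% of all probe sets. The 2 were Nop58 (-0.51, adjusted p in limma 0.000569) and Nop2 (-0.51), which act in modifying ribosomal RNA. From P6 to P14 Sbds, which readies the large subunit for joining, was called higher (1.47, adjusted p = 4.89e-05), as were Ltv1 (0.77) and Rrp12 (0.31), while Nop58 was lower again (-0.47). Over all probe sets 15.7% were called higher and 5.14% lower there. The assembly counts as deposited thus lie below the share of all probe sets in each direction. The assembly list's median was -0.20 and then 0.05, the second of which became -0.17 after quantile normalization. On that scale 2 were called higher and 6 lower from P6 to P14, against 10.9% and 10.4% of probe sets. RNA polymerase I transcribes ribosomal RNA, and its list of 6 measured genes holds the factors Ubtf and Taf1d beside its subunits. Polr1a was called lower from P0 to P6 (-0.46), and none of the 6 was called from P6 to P14. After quantile normalization 2 were lower from P6 to P14, Polr1a and Taf1d.

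Among translation factors, the direction of the calls after P6 turned with the scale. Of 28 initiation factors Eif3f (-0.41) and Pabpc1 (-0.40) were lower at P6 than at P0, and Eif2b2 was higher at P14 than at P6 (0.68). Over all probe sets 7.95% were called lower in the first comparison and 15.7% higher in the second. After quantile normalization the first comparison called 4 lower, and the second 5 lower and none higher, against 10.2% and 10.4% of probe sets called lower. Of 7 genes listed for elongation, not all of them elongation factors, none was called from P0 to P6. From P6 to P14 Eef1a2, the form of adult neurons and muscle, was higher (0.46). Eef1e1, which is not itself an elongation factor, was lower (-0.56). After quantile normalization the elongation list gave 1 higher in the first comparison and 1 lower in the second. Of 10 other messages with a TOP start, 3 were lower from P0 to P6: Vim, an intermediate filament of immature glia (-1.64), Eif3f and Pabpc1, against 7.95% of probe sets. From P6 to P14 Vim alone was lower (-0.44), with 3 lower after quantile normalization.

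Among the regulators, Myc family genes were called lower in 3 of 9 from P0 to P6: Mycn (-1.30, adjusted p in limma 4e-09), Myc (-0.75) and the antagonist Mnt (-0.43). From P6 to P14 the antagonists Mxd4 (0.73) and Mxd3 (0.46) were higher, and after quantile normalization Myc was called lower as well (-0.61, adjusted p = 0.0101). In the same first comparison the 21 ribosomal protein genes had 0 calls. Of 18 genes of mTOR signalling and TOP control, Ddit4, an inhibitor of the pathway, was higher at P6 (0.36) and the kinase Akt1 lower (-0.93), and from P6 to P14 Rps6kb2 (0.60) and Sesn1 (0.47) were higher. After quantile normalization that list gave 1 higher and 4 lower and then none. Calls in these lists can be read against the shares over all probe sets as deposited. These were 6.42% higher and 7.95% lower from P0 to P6, and 15.7% higher and 5.14% lower from P6 to P14.

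**Figure D5:**
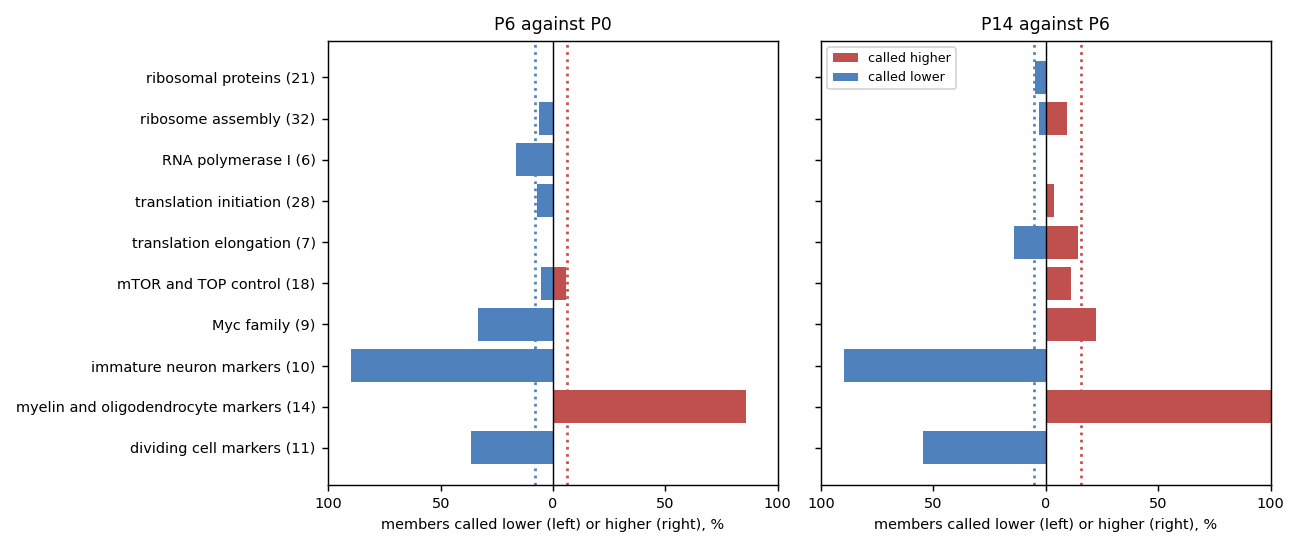
Share of the measured genes of each list called higher (red, right) or lower (blue, left), in percent, from P0 to P6 and from P6 to P14 on the deposited scale, with the number of measured genes in brackets. Dotted lines are the shares over all probe sets, 6.42% higher and 7.95% lower in the first comparison and 15.7% and 5.14% in the second. The ribosomal protein bars are 0 of 21 and 1 of 21, while immature neuron and myelin markers reach 9 of 10 and 14 of 14.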

How the data were processed

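RNA of MNTB tissue from single mice was amplified and hybridised to 1-colour arrays, per the labels' protocols. The log2 values deposited by the authors cover 33 arrays and 16686 probe sets. They were made with RMA and Partek 6.3, with mm9 as the build, per the submitters' processing notes; other settings are not stated there. Amplifying little RNA can make arrays differ. The number of arrays limits the precision.

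The platform annotation gave 14993 probe sets a single symbol, 1019 several and 674 none, and 14939 matched RefSeq's gene table (GRCm38.p6) by Entrez number. A linear model with 1 mean per age was fitted to every probe set with limma 3.58.1 (R 4.3.3). It gave a moderated F test over the 7 ages and 7 two-sided contrasts. P-values were adjusted by Benjamini and Hochberg over the whole table, at a threshold of 0.05. Called means an adjusted p under 0.05, and SE is the moderated standard error. No filter or pseudocount was used. The fit was tested on simulated data. Mice are separate animals, and p-values measure the spread between them.

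Members and lists were chosen with earlier results of these data known. Among members the rule named those called, the 3 with the widest and the 3 with the narrowest range of age means, Rplp0 and Rpsa, and in each other list up to 3 called genes per direction. The remaining members, the markers and the genes singled out by litter number were named after their values were seen. A planned test of paralogs against their parent genes was void, since 0 of 7 listed pairs had both genes measured. Alternatives were quantile normalization, median centring, array weights, leaving out arrays, a dim filter, an intensity trend, the litter number as a block and fits of the 2 ages alone.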

Additional observations from a re-analysis of the deposited data

Results flagged for a closer look

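In 147 groups of 4 or 5 mice of an age, over the 21 ribosomal protein genes, 9 held a mouse standing apart from the others by Dixon's 95% criterion, with about 7.3 to be had by chance (1 in 20). Rpl4 read 6.52 in the P0 mouse of litter 5, against 8.33 to 8.67 in the others of that age. Rpl37 read 6.38 in the P3 mouse of litter 4 (others 2.89 to 3.68), and Rpl8 read 8.84 in the P6 mouse of litter 4 (others 9.52 to 9.75), the array with the lowest weight in limma. Rpsa was at 8.05 in the P2 mouse of litter 2 (others 8.45 to 8.61). Rpl10a was at 4.56 in the P6 mouse of litter 1 (others 3.65 to 3.86). Rpl35a was high in a P0 mouse of litter 3 (5.17, others 3.52 to 3.98) and in a P1 mouse of litter 1 (4.64, others 4.08 to 4.21). Rps15 was high in a P2 mouse of litter 4 (2.76, others 2.55 to 2.6) and in a P6 mouse of litter 2 (3.44, others 2.56 to 2.75).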

How the results depend on the processing

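The number of arrays and, for dim genes, signal near background limit these results. Across the alternatives, of 165 recomputed values 144 kept their direction and side of the threshold, or their count within 1.5 times, and none reversed. Many of the 165 are counts of calls in the single steps, at 0 in the reported fit. Those counts could hardly move, since few probe sets of any kind were called there, so the total says little about stability. The count over the 7 ages was 2 after quantile normalization, median centring and leaving out dim probe sets, and 0 without the 3 arrays of lowest weight, where the F test of Rplp0 had an adjusted p of 0.0505. From P0 to P6, 1 gene was called higher, Rpl3l, after quantile normalization, with the litter number as a block (0.43, adjusted p = 0.0444) and with an intensity trend (adjusted p = 0.0468). Likewise 1 gene was called lower, Rpl23, after median centring (-0.71, adjusted p = 0.0458) and without dim probe sets (1 of the 14 members kept, adjusted p = 0.0393). From P6 to P14 the call of Rplp0 was lost, leaving 0, with array weights (-1.09, adjusted p = 0.0512), without the 3 arrays of lowest weight (-1.08, adjusted p = 0.107) and in the fit of the 2 ages alone (-1.25, adjusted p = 0.129). The cause was not tested.

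Leaving out single mice, 212 of 248 values were kept, again with many 0 counts of the single steps among them. The call of Rplp0 from P6 to P14 was kept in 2 of 9 such fits. The count over the ages ran from 0 to 2 and the F test's adjusted p for Rplp0 from 0.00169 to 0.223. From P0 to P6, 0 to 1 genes were higher and 0 to 1 lower, with Rpl3l from 0.34 to 0.55 (adjusted p 0.0108 to 0.169), Rpl23 from -0.92 to -0.56 (0.0103 to 0.196) and the median from -0.23 to 0.01. From P6 to P14, 0 to 1 were lower, with Rplp0 from -1.77 to -0.79 (0.00268 to 0.253) and the median from -0.10 to 0.06.

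As a check of the pairing, mice with the same litter number at 2 ages had correlations of their deviations from -0.32 to 0.65, and in 0 of 21 pairs of ages were all above 0.1. The number was not used as a block in the reported fit. That bar is strict, and failing it does not show that the litter number had no effect. The mean correlation was 0.09 for the same number and -0.02 for others, and higher for the same number in 19 of 21 pairs of ages. Of the 33 arrays 18 correlated best with one of their own number, which is a hint from the data, not the design. With the replicate block Rplp0 was at -1.11 from P6 to P14 (adjusted p = 0.0241) and 0.00839 in the F test, and no call other than that of Rpl3l changed. The mean of a gene's probe sets and the paralog alternatives were not run, since each member had 1 probe set and no pair was measured.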
